A study of Mus musculus with 12 samples.

Results

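The 10 genes described here encode proteins of the BCL2 family that decide whether a cell keeps or opens its mitochondria: the protectors Mcl1, Bcl2l1, Bcl2, Bcl2a1b and Bcl2a1d, the pore formers Bax and Bak1, and Bid, Bad and Bcl2l11, whose proteins carry only the BH3 domain. They were picked by symbol as members of the family, with earlier results of these data known, and are 10 of the 24062 entries in each of 2 tables. RNA came from BV2, an immortalised mouse microglial line in which the macrophage transcription factor PU.1, encoded by Spi1, was lowered or raised. One experiment compared 3 libraries of cells carrying a short hairpin RNA against Spi1 with 3 libraries of cells carrying a scrambled hairpin. The other compared 3 libraries of cells given a mouse Spi1 cDNA with 3 libraries of cells given the empty control. All 12 libraries came from unstimulated cells in the same serum-containing medium, hairpin or cDNA was present transiently, and RNA was taken after flow sorting. The labels name 1 line and leave unsaid whether the 3 libraries of a group had cultures of their own. The p-values therefore measure only spread between libraries, and that spread may be technical.

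In the mitochondrial death pathway, BH3-only proteins sense stress and either bind the protectors or activate Bax and Bak1. Active Bax and Bak1 open the outer mitochondrial membrane, cytochrome c escapes to the apoptosome, and caspases are switched on. Macrophages and microglia rely on the protectors, and the A1 proteins (Bcl2a1 genes) are typical of blood-derived cells and are induced by inflammatory signals. Much of the control lies in the proteins, which RNA does not show: Mcl1 protein is short-lived, Bad is held inactive by phosphorylation, Bid is activated by cleavage, and Bax by a change of shape.

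The promoters of the A1 genes are shown first because they hold a purine-rich motif of the PU.1 type and because Bcl2a1d fell most of the members in the knockdown. In the RefSeq promoter windows of build GRCm38.p6, which run from 250 bases before to 50 after each start, the letters GAGGAAGT were sought on both strands. They were found in 4 of the 10 members, against 3.69% of 27025 genes with a window. All windows of a gene were searched, and the members had 14 among them. The capitals mark GAGGAAGT, or its reverse complement in Bak1. The stretches lie before the RefSeq start site of their window, on the strand of the gene. They are at chr9:89199080-89199167 for Bcl2a1b, chr9:88731912-88731999 for Bcl2a1d, chr17:27028631-27028660 for Bak1 and chr19:6942362-6942391 for the second window of Bad.
Bcl2a1b: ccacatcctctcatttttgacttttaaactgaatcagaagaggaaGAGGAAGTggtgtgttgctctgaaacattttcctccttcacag
Bcl2a1d: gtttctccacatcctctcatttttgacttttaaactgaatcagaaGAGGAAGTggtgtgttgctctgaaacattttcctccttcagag
Bak1: ggccaccgagaACTTCCTCtagagggagct
Bad: gccctaggcttGAGGAAGTccgatcccgga
Counted from that RefSeq start site, the motif ended at base -141 in Bcl2a1b, -97 in Bcl2a1d, -15 in Bak1 and -182 in Bad. By the GENCODE gene bounds given below, the Bak1 and Bad stretches lie inside the gene. The Bcl2a1d stretch overlaps the first bases of its gene by those bounds. The A1 stretches are near copies, so their matches are not separate finds in the count of members. GAGGAA stands in 2 adjoining units in Bcl2a1b and in 1 in Bcl2a1d. The windows of the other copies, Bcl2a1a and Bcl2a1c, hold the motif with 2 units as well, although these copies had at most 10 reads in any library. Mcl1, Bcl2l1, Bcl2, Bax, Bid and Bcl2l11 held no match, which says only that these letters are not in their windows. A second ETS-type motif, CCGGAAGT, was found in 1 member, the third window of Bcl2l1, against 4.31% of genes. These are matches of letters, and binding was not measured. Of the 4 members with GAGGAAGT, only Bcl2a1d passed the first knockdown test below. Bcl2a1b, Bak1 and Bad did not pass it, whereas Mcl1 and Bcl2l11, which hold no match, did. A link between the motif and the levels was not tested.

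Depth ran from 22.3 to 33.1 megareads on genes per library, recovered from the values as described under processing, and 14871 to 15492 genes were above 0. Levels are in FPKM, which scales a gene's reads by its length in kilobases and by the library's megareads, so that genes can be compared. Spi1, the targeted gene, stood at 159, 169 and 168 FPKM in scrambled controls 1 to 3 and at 50.9, 42.4 and 52.3 in the knockdown. Empty controls 1 to 3 held 158, 117 and 131 FPKM of Spi1 and the overexpression libraries 287, 224 and 206, where reads of the cDNA and of the cells' own gene cannot be told apart. Treated and control libraries did not overlap in Spi1 in either experiment. All 13 microglia and macrophage markers were listed, with a summed 2116 to 2630 FPKM, although 2 stayed under 1 FPKM. All listed markers of neurons, astrocytes, oligodendrocytes, fibroblasts and lymphocytes were under 1 FPKM in every library, with Rbfox3, Snap25, Syt1, Aqp4 and Cd3e at 0. Of 4 endothelial markers 3 were under 1 FPKM, and of the neutrophil markers 3 were found, summing to 1.98 to 5.36 FPKM.

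All 10 members passed the filter of a mean of 1 FPKM, with between 175 and 15251 reads each per library. In the scrambled controls Mcl1 was the most abundant at 158 ± 10.5 FPKM (SD, n = 3), followed by Bax at 108 ± 6.92, Bak1 at 75.2 ± 5.58, Bcl2l1 at 59.4 ± 7.75 and Bcl2a1b at 49.4 ± 6.06. Bid at 42.3 ± 6.40, Bad at 24.3 ± 0.925, Bcl2a1d at 19.7 ± 2.38, Bcl2l11 at 13.3 ± 0.812 and Bcl2 at 6.64 ± 1.005 made up the lower ranks. Neighbours in this order did not overlap between libraries, except Bcl2l1 with Bcl2a1b and Bcl2a1b with Bid. Mcl1 and Bax overlapped in the other 3 groups. Bcl2, the founding protector of the family, was the lowest of the 10 in every group mean, and Mcl1 the highest.

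**Figure D1:**
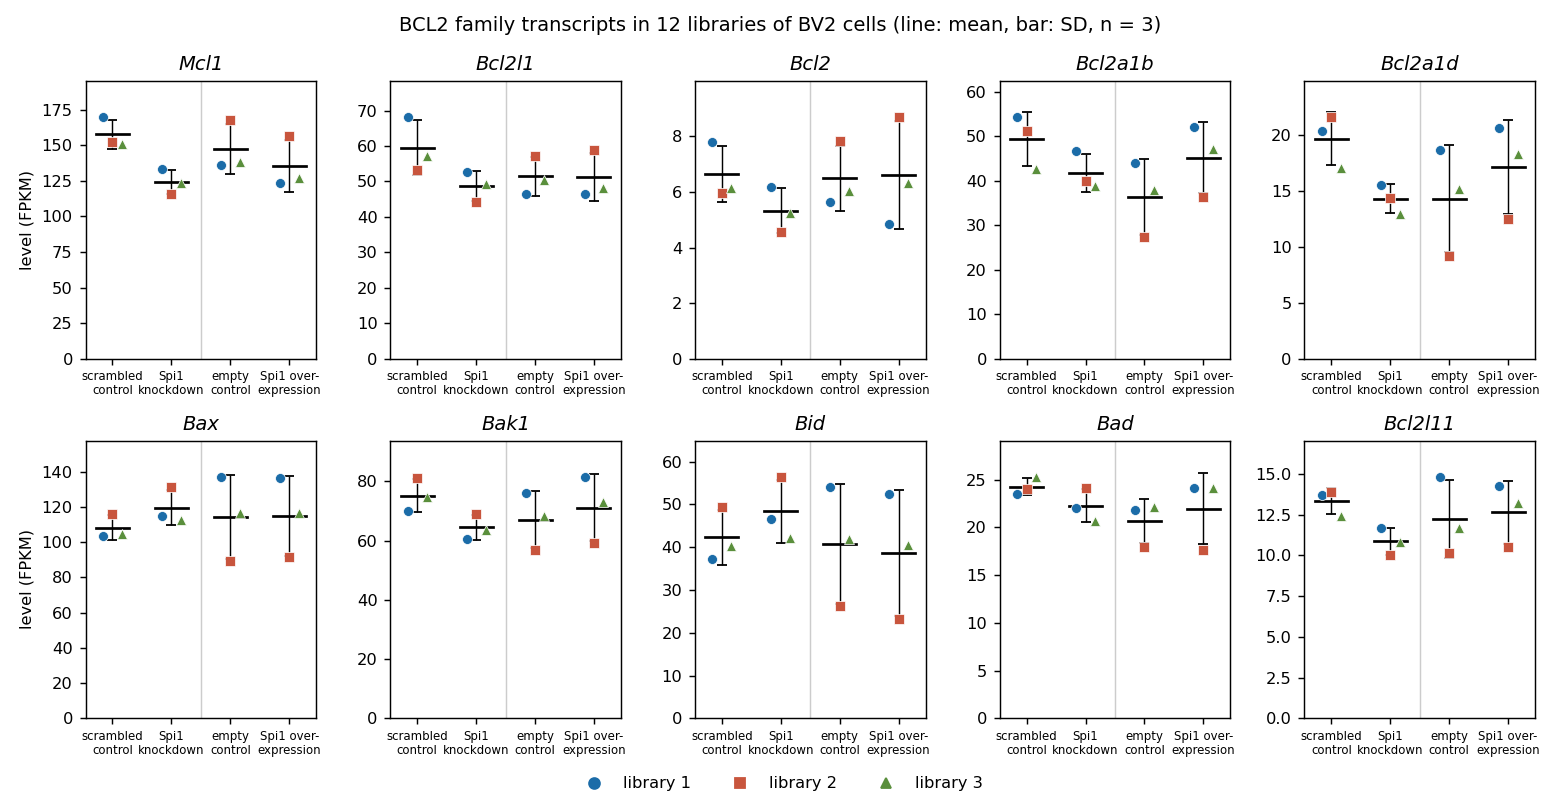
Level of each of the 10 genes in FPKM (y axis, from 0) in the 4 groups (x axis). Points are libraries, and bars show the mean and SD of 3 libraries. Mcl1, Bcl2l1, Bcl2a1d, Bak1 and Bcl2l11 lie wholly below their scrambled controls in the knockdown, and no gene separates from its controls in the overexpression experiment.

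The first comparison asks how these genes stood when PU.1 was reduced. In the fit without pairing, Mcl1, Bcl2a1d and Bcl2l11 were called lower in the knockdown, and no member was called higher. That fit called no member once both libraries of any number were left out. A fit that paired same-numbered libraries, given below, called 7 members lower and Bax higher. In mean FPKM, Bcl2a1d fell by 27.2%, Mcl1 fell by 21.2% and Bcl2l11 fell by 18.6%, where Spi1 fell by 70.7%. They included protectors and a killer: Mcl1 and Bcl2a1d block death, and Bcl2l11 encodes Bim, a strong BH3-only activator. Being bulk RNA, the values cannot tell fewer expressing cells from less RNA per cell. Each count of called members below is from limma on log2(FPKM + 1) with Benjamini-Hochberg adjustment over 11214 genes at a threshold of 0.05. By that test 3 of 10 members were called, beside 26.3% of all genes tested. All 3 were lower, beside 8.86% of genes called lower and 17.4% called higher.

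Mcl1 (mm10 chromosome 3, 95658788 to 95663176), the short-lived protector, stood at 170, 152 and 151 FPKM in scrambled controls 1 to 3 and at 133, 116 and 123 in knockdown libraries 1 to 3. Every knockdown library was below every control. Its log2 change was -0.34 (SE 0.079, adjusted p = 0.0205, limma), and it was lower in 3 of 3 same-numbered pairs. Without scrambled control 1, knockdown 2 or knockdown 3 the adjusted p of Mcl1 was 0.0508, 0.0651 and 0.0670 (limma).

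Bcl2l1 (chromosome 2, 152780668 to 152831728) encodes Bcl-xL, a long-lived protector. It was at 68.1, 53.1 and 57.1 FPKM in the controls and 52.5, 44.3 and 49.2 in the knockdown, so the groups did not overlap, by a narrow margin. The log2 difference of -0.28 (SE 0.107) did not pass (adjusted p = 0.0949, limma). Bcl2 (chromosome 1, 106538178 to 106714274) was at 7.80, 5.98 and 6.16 FPKM in the controls and 6.18, 4.56 and 5.23 in the knockdown. Here the groups overlapped, although each knockdown library was below the control of its own number. The log2 difference of Bcl2 was -0.27 (SE 0.123, adjusted p = 0.141, limma).

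The A1 genes lie close together on chromosome 9, Bcl2a1d at 88723285 to 88731914 on the minus strand and Bcl2a1b at 89199209 to 89207827 on the plus strand. Bcl2a1d was at 20.4, 21.6 and 17.0 FPKM in the controls and at 15.6, 14.4 and 12.997 in the knockdown. All knockdown libraries were below all controls, and the log2 change was -0.43 (SE 0.104, adjusted p = 0.0238, limma). The call of Bcl2a1d was lost without scrambled control 1 or 2, or without knockdown 2 or 3, at adjusted p between 0.0630 and 0.0814 (limma). Bcl2a1b was at 54.3, 51.2 and 42.6 FPKM in the controls and 46.7, 39.9 and 38.8 in the knockdown. Its groups overlapped, and its difference of -0.23 (SE 0.111) did not pass (adjusted p = 0.160, limma). The Bcl2a1b to Bcl2a1d ratio of FPKM was 2.66, 2.37 and 2.499 in the controls and 2.99, 2.77 and 2.98 in the knockdown.

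How the authors' counting split reads between the A1 copies is not known, so the values of each copy are uncertain. In the GENCODE M21 transcripts, the coding sequences of Bcl2a1b and Bcl2a1d have 516 bases each and differ at 6. Of all 100-base stretches, the length of a read here, 31.1% of Bcl2a1b and 54.7% of Bcl2a1d were shared exactly with another A1 gene. Exons of Bcl2a1b also share 401 bases with the predicted gene Gm29094 on the same strand. The other copies were near the floor: Bcl2a1a had 2 to 10 reads per library and Bcl2a1c 0 to 3, and neither was tested.

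The pore formers differed in sign, and neither passed the test. Bax (chromosome 7, 45461697 to 45466898) was at 104, 116 and 105 FPKM in the controls and 115, 131 and 113 in the knockdown. The groups overlapped, with each knockdown library above the control of its number. The log2 difference of Bax was 0.14 (SE 0.083, adjusted p = 0.240, limma). Bak1 (chromosome 17, 27019810 to 27029009), which sits in the outer mitochondrial membrane, was at 69.9, 81.0 and 74.6 FPKM in the controls and 60.7, 69.1 and 63.7 in the knockdown. Its groups did not overlap. The log2 difference of Bak1 was -0.22 (SE 0.080, adjusted p = 0.0858, limma), and it passed after median-of-ratios scaling (adjusted p = 0.0301).

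Bcl2l11 (chromosome 2, 128126038 to 128162547) was at 13.7, 13.9 and 12.4 FPKM in the controls and 11.7, 10.1 and 10.8 in the knockdown. Every knockdown library was below every control, and the log2 change was -0.27 (SE 0.077, adjusted p = 0.0380, limma). Its call was lost without scrambled control 1 or 2, or without knockdown 2 or 3, at adjusted p between 0.0916 and 0.114 (limma).

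The other BH3-only genes were not called. Bid (chromosome 6, 120891930 to 120916853), which links death receptors to mitochondria, was at 37.2, 49.5 and 40.2 FPKM in the controls and 46.5, 56.5 and 42.1 in the knockdown. The groups overlapped, while all 3 pairs were higher in the knockdown (log2 difference 0.19, SE 0.137, adjusted p = 0.337, limma). In GENCODE M21, exons of Bid share 628 bases with Bcl2l13 on the other strand, a gene that rose by 0.33 on the log2 scale in the knockdown. The kit does not mark strand, so reads there could not be told apart if the authors' annotation held this overlap. The Bid length recovered from the values was 1891 bases, against 3550 exon bases in GENCODE. Whether the overlap was counted is therefore not known. Bad (chromosome 19, 6941861 to 6951899) was at 23.5, 24.0 and 25.3 FPKM in the controls and 22.0, 24.1 and 20.6 in the knockdown, with overlapping groups and a log2 difference of -0.12 (SE 0.074, adjusted p = 0.256, limma). In GENCODE, Bad shares 524 exon bases with Gpr137 on the other strand, and Bak1 shares 437 and 177 with 2 annotations of Ggnbp1. Their recovered lengths were also shorter than in GENCODE, at 1521 against 2558 bases for Bad and 2002 against 2407 for Bak1.

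By position alone, 5 members were wholly below their controls, beside 15.1% of all genes tested, and 0 wholly above, beside 30.3%. In all 3 same-numbered pairs, 7 members were lower and 2 higher, beside 24.6% and 47.3% of genes. The median log2 difference was -0.25 over the 10 members, -0.28 over the 5 protectors and -0.12 over the 5 killers, against 0.07 over all genes.

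Same-numbered libraries deviated together, and a limma fit with that number as a block called 8 of the 10 members, beside 45.3% of all genes. Lower were 7: Mcl1 (adjusted p = 0.00616), Bcl2a1d (0.00628), Bcl2 (0.0110), Bcl2l1 (0.0122), Bak1 (0.0133), Bcl2l11 (0.0243) and Bcl2a1b (0.0277), beside 14.7% of genes called lower. Bax was the 1 called higher (adjusted p = 0.0459), beside 30.6% of genes. Bid and Bad were not called (adjusted p = 0.0582 and 0.191). Under the block with median-of-ratios scaling the difference of Bax was 0.06 and its adjusted p 0.262. Without both libraries numbered 2 the blocked fit called 1 member, Bcl2a1d, and 1268 of 11232 genes.

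**Figure D2:**
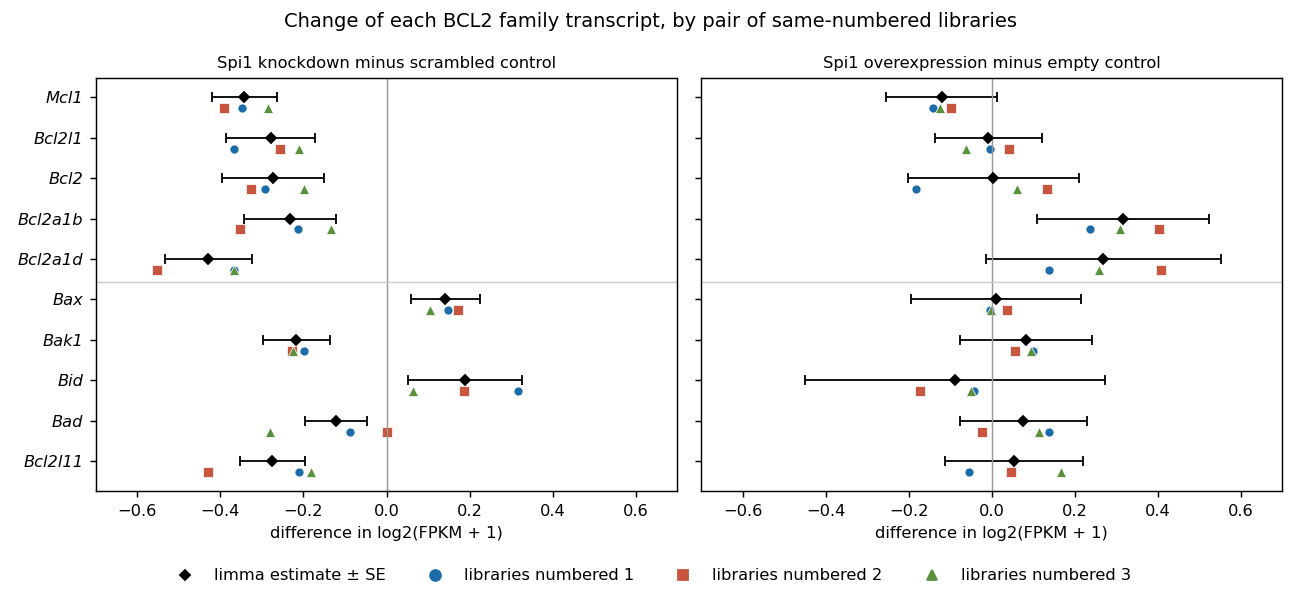
Log2 difference on the log2(FPKM + 1) scale between Spi1 knockdown and scrambled controls (left) and between Spi1 overexpression and empty controls (right) for each gene. Large symbols show the limma estimate with its SE, and small points the 3 same-numbered pairs. In the knockdown all 3 pairs lie below 0 for 7 genes and above 0 for Bax and Bid, and in the overexpression panel the A1 genes lie highest.

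The summed level of the 5 protectors over that of the 5 killers was 1.29, 0.9996 and 1.06 with the scrambled hairpin and 0.993, 0.754 and 0.919 in the knockdown. The ranges did not overlap, and the margin was narrow. Mcl1 and Bax are the largest terms of these sums. Mcl1 over Bax was 1.64, 1.31 and 1.44 in the controls and 1.16, 0.885 and 1.10 in the knockdown. Mcl1 over Bcl2l11, in contrast, was 12.4, 10.97 and 12.2 in the controls and 11.4, 11.5 and 11.4 in the knockdown, with overlapping ranges.

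**Figure D3:**
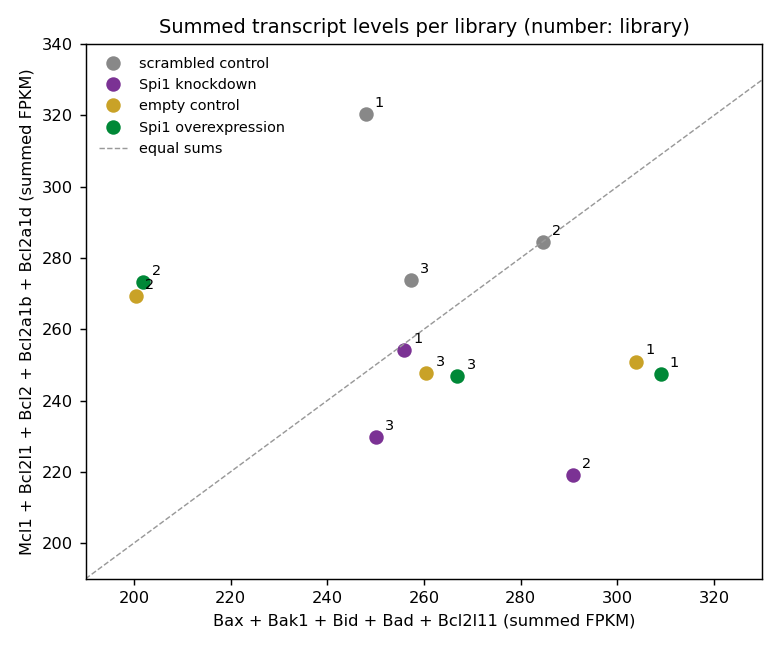
Summed FPKM of the 5 protectors (y axis) against that of the 5 killers (x axis) in each of the 12 libraries, with the library number beside each point. The 3 knockdown libraries have summed protector levels of 219 to 254, below the 274 to 320 of the scrambled controls, and the overexpression libraries lie beside the empty control of the same number.

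Cell cycle genes also differed between the knockdown and its scrambled controls. The 12 listed G2/M genes were all called higher, beside 17.4% of all genes, with a median log2 difference of 0.99. They summed to 231 to 341 FPKM in the scrambled controls and 532 to 594 in the knockdown. The sums were 458 to 624 in the empty controls and 405 to 572 in the overexpression libraries. The scrambled controls were thus the lowest group, and the knockdown lay within the range of the empty controls. The summed microglia and macrophage markers were 2491 to 2630 FPKM in the scrambled controls and 2116 to 2332 in the knockdown. The endothelial list, nearly all of it Kdr, summed to 57.3 to 61.7 FPKM in the scrambled controls and 74.3 to 78.9 in the knockdown, with its other 3 markers under 1 FPKM. The part of any of these in the members' values was not tested. Each experiment had its own controls, so levels set across the 2 are only a description. The knockdown had the lowest of the 4 group means for 6 members. The scrambled controls were as often further from the empty controls (5 members) as the knockdown was (5). The members' median log2 difference from the empty controls was 0.15 for the scrambled controls and -0.00031 for the knockdown. Bcl2a1d averaged 14.3 FPKM in the knockdown and 14.3 in the empty controls, and Mcl1 124 and 147.

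The second comparison asks how the members stood when PU.1 was raised. None of the 10 passed the test, at an adjusted p of 0.9999 in limma, beside 0.00% of 11217 genes called. At an unadjusted p under 0.05 there were 0 members and 122 genes, and limma-voom on recovered reads called 0 genes. Spi1 itself, 0.81 higher on the log2 scale (SE 0.165), was not called in this fit and passed with the replicate block (adjusted p = 0.0357, limma). The blocked fit called 0.116% of genes and 0 members, with 3 members and 1577 of 11217 genes at an unadjusted p under 0.05. A miss here does not show that the genes were unchanged: the SE of the members ran from 0.128 to 0.361 in log2 units, larger than in the knockdown for each of them.

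The A1 genes had the largest differences of the 10. Bcl2a1b measured 44.1, 27.3 and 37.8 FPKM in empty controls 1 to 3 and 52.1, 36.4 and 47.1 in overexpression libraries 1 to 3. The groups overlapped, because library 2 was low in both, yet each overexpression library was above the control of its number, by 0.24, 0.40 and 0.31 in log2 units. The estimate for Bcl2a1b was 0.32 (SE 0.208), and with the block its SE was 0.048 and its adjusted p 0.125 (limma). Bcl2a1d was at 18.7, 9.20 and 15.2 FPKM in the controls and 20.7, 12.5 and 18.4 in the overexpression libraries. It was likewise higher in 3 of 3 pairs, with an estimate of 0.27 (SE 0.282) and a blocked adjusted p of 0.200 (limma). Both estimates moved when 1 library was left out. That of Bcl2a1d was -0.00041 without empty control 2, 0.13 without overexpression 1, and 0.47 without either empty control 1 or overexpression 2. That of Bcl2a1b was 0.13 without empty control 2 and 0.21 without overexpression 1. With both libraries of number 1, 2 or 3 left out, the Bcl2a1b estimate was 0.36, 0.27 and 0.32. The Bcl2a1d estimate was then 0.33, 0.20 and 0.27. The promoters of both are those shown above, and a link of their motif to these differences was not tested.

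Of the other protectors, Mcl1 measured 136, 168 and 138 FPKM with the empty control and 123, 157 and 127 in the overexpression libraries, lower in 3 of 3 pairs with overlapping groups. Its log2 difference was -0.12 (SE 0.134), with a blocked adjusted p of 0.293 (limma). Thus Mcl1 was below its own controls in all pairs of both experiments. Bcl2l1 was at 46.6, 57.2 and 50.5 FPKM against 46.5, 58.9 and 48.3, and Bcl2 at 5.63, 7.83 and 6.03 against 4.84, 8.69 and 6.33. For these the groups overlapped, the pairs went both ways, and both log2 differences were within 0.01 of 0. A blocked limma-voom fit on recovered reads, chosen after the data were seen, called Bcl2a1b higher (adjusted p = 0.000686) and Mcl1 lower (adjusted p = 0.0457).

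The killers stayed within their spread. Bax measured 137, 89.2 and 116 FPKM with the empty control and 137, 91.5 and 116 in the overexpression libraries, so same-numbered libraries were nearly equal while numbers differed widely. Bak1 was at 76.1, 56.9 and 68.3 FPKM in the controls and 81.6, 59.1 and 72.9 in the overexpression libraries, a small excess in 3 of 3 pairs (0.08, SE 0.159). Bid was at 54.1, 26.2 and 41.9 FPKM against 52.5, 23.1 and 40.4, lower in 3 of 3 pairs (-0.09, SE 0.361). Again the spread between numbers exceeded the difference between groups. Bad was at 21.8, 18.0 and 22.2 FPKM against 24.1, 17.7 and 24.1, and Bcl2l11 at 14.8, 10.1 and 11.7 against 14.2, 10.5 and 13.2, each with 2 pairs higher and 1 lower. Over the members, 3 were higher and 2 lower in every pair, beside 14.0% and 23.8% of genes, and 0 had groups that did not overlap, beside 4.06%. The protector to killer ratio was 0.826, 1.34 and 0.951 with the empty control and 0.801, 1.35 and 0.925 with the Spi1 cDNA, with same-numbered libraries close together.

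The third comparison tests whether the 2 manipulations had different effects, as the overexpression effect minus the knockdown effect over all 12 libraries. Without the block 0 members passed, beside 4.84% of 11224 genes (1.90% higher and 2.94% lower), and 0 had an unadjusted p under 0.05. Bcl2a1b and Bcl2a1d came closest, at 0.55 (SE 0.253) and 0.70 (SE 0.325), with adjusted p = 0.241 and 0.247 (limma). With the replicate block 8 of 10 passed, beside 41.5% of genes. Of these, 7 were higher, beside 12.9% of genes, and Bid was lower, beside 28.6%. A change in the knockdown alone is enough to give such a difference. Bcl2a1d had the smallest adjusted p (0.00176, limma), followed by Bcl2a1b (0.00229) and Bak1 (0.00365). Bid lost its blocked call, and Bad gained one, with median-of-ratios scaling (adjusted p = 0.0792 and 0.0295).

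In the overexpression experiment the libraries numbered 2 stood further from the other numbers than the treated group did from its controls, for all 10 members. In them, control and overexpression alike, Mcl1, Bcl2l1 and Bcl2 were the highest of the 3 and the other 7 members the lowest. Being an extreme in both groups was common there, at 69.5% of all genes. Against the mean of the other numbers, averaged over both groups, library 2 was 0.90 lower for Bid, 0.70 lower for Bcl2a1d and 0.48 lower for Bax in log2 units. It was 0.31 higher for Mcl1, 0.27 higher for Bcl2l1 and 0.47 higher for Bcl2. In all, 9 members were more than 0.3 away, beside 33.9% of genes. The libraries numbered 1 stood mostly the other way, with 6 members highest and 3 lowest in both groups, beside 55.4% of genes extreme. What the number stands for is not given in the sources used here, and the source of this spread was not tested. In the knockdown experiment the numbers spread less, and 3 members were highest and 2 lowest in both libraries numbered 2, beside 45.02% of genes.

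**Figure D4:**
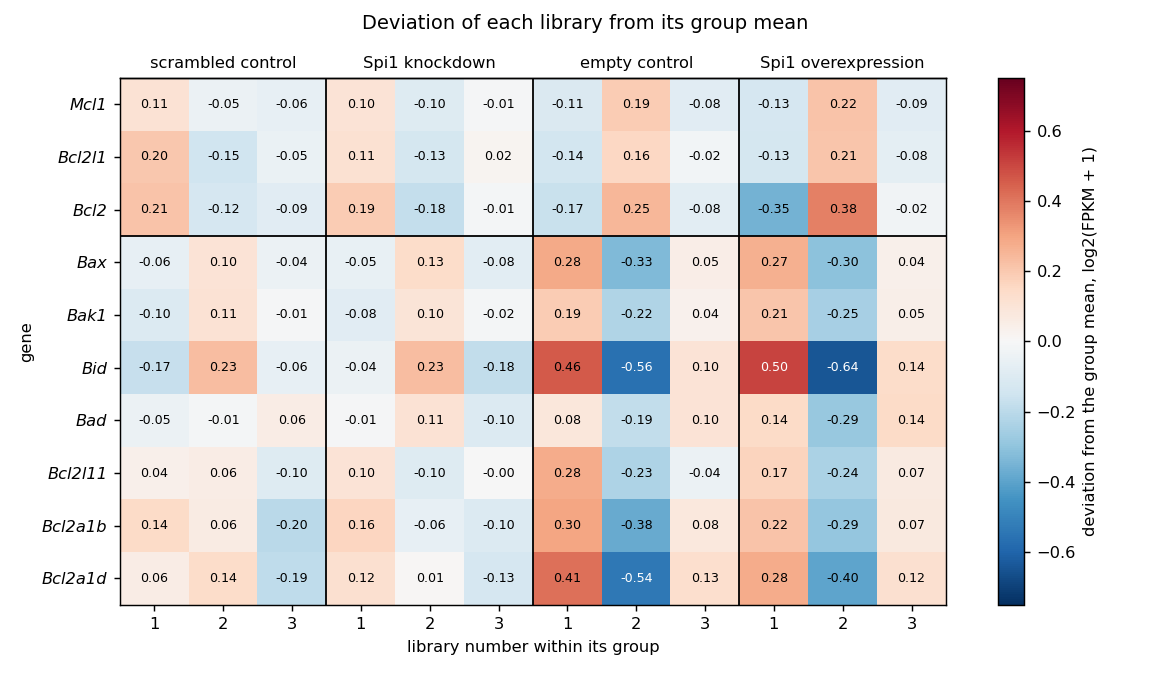
Deviation of each library from its group mean, in units of log2(FPKM + 1), for the 10 genes (rows) in the 12 libraries (columns, by group and number). Red is above and blue below the mean. In both libraries numbered 2 of the overexpression experiment the upper 3 genes (Mcl1, Bcl2l1, Bcl2) are above their mean and the lower 7 below it.

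The genes most like a member across all 12 libraries were sought among 11112 genes tested in both experiments, by Pearson correlation of log2(FPKM + 1). These values describe libraries that share group, number and table, and carry no test. For Mcl1 they were Klra2, Abca8b, Plekhn1, Wfdc17 and Lasp1, with r between 0.940 and 0.942. For Bcl2a1b they were Ccr1 (0.952), its own copy Bcl2a1d (0.951), Bicd2, Rnf183 and Jtb (0.923). The part of shared reads in the likeness of the A1 copies was not tested.

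Around the 10 members, 62 other genes of the death pathways were listed, and 54 passed the filter in the knockdown experiment. By limma 7 rose and 10 fell, to be read beside the 26.3% of all genes called, 17.4% higher and 8.86% lower. The same shares stand beside the unblocked counts by list that follow, each from few genes. With the replicate block 12 rose and 15 fell, beside 30.6% of all genes called higher and 14.7% called lower. Other BCL2 family genes gave 2 rises and 1 fall among 9 tested. Pmaip1, which encodes the BH3-only protein Noxa, an antagonist of Mcl1, fell by 0.60 on the log2 scale (from 14.8 ± 2.05 to 9.51 ± 1.70 FPKM, SD, n = 3; adjusted p = 0.0193, limma). Bcl2l13, a mitochondrial family member, rose by 0.33, and the BH3-only gene Bik rose by 0.44 from a mean of 0.898 FPKM.

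Further along the pathway, 3 of 12 caspase and apoptosome genes rose and 2 fell. Apaf1, the scaffold of the apoptosome, fell by 0.25 (adjusted p = 0.0210, limma), and Casp9, the caspase it activates, fell by 0.26 (adjusted p = 0.0275). Endog, a mitochondrial nuclease, rose by 0.24. Of 7 inhibitor-of-apoptosis genes and their antagonists, Xiap, a direct caspase inhibitor, fell by 0.27 (adjusted p = 0.0157), and Birc5 (survivin) rose by 0.84 (adjusted p = 0.00519). Survivin also serves in cell division, and the G2/M genes above rose in the same libraries.

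Upstream, 2 of 7 genes of death receptors and their adaptors fell and none rose. They were Tnfrsf1a, a TNF receptor gene, which fell by 0.31 (adjusted p = 0.0231, limma), and Cflar, which encodes an inhibitor of caspase-8 activation and fell by 0.29 (adjusted p = 0.0219). Among 14 regulators and partners of BCL2 proteins 1 rose and 3 fell. Pim1, a kinase that phosphorylates Bad, fell by 0.50, from 39.1 ± 1.13 to 27.3 ± 0.249 FPKM (SD, n = 3; adjusted p = 0.00286, limma). Fbxw7, part of a ubiquitin ligase that marks Mcl1 for degradation, fell by 0.39, and the stress factor gene Ddit3 (CHOP) fell by 0.60. Of 5 necroptosis and pyroptosis genes Nlrp3, the inflammasome sensor, fell by 0.33 (adjusted p = 0.0151), and with the block 4 of the 5 fell, beside the 14.7% of genes called lower in that fit. Among the named genes on the promoting side, Bik and Endog rose while Pmaip1, Apaf1 and Casp9 fell. On the restraining side Xiap, Cflar and Pim1 fell, and of the genes named there only Birc5 rose.

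In the overexpression experiment 0 of 52 tested pathway genes passed, with or without the block, with 1 and 5 at an unadjusted p under 0.05. Fas, a death receptor gene, was the 1 without the block, at 1.47 ± 0.202 FPKM in the empty controls and 0.905 ± 0.339 in the overexpression libraries (SD, n = 3), with overlapping groups. The other genes with the smallest p in their lists had log2 differences of -0.28 for Bnip3, -0.11 for Bcl2l13, -0.13 for Casp6, -0.09 for Aifm1, -0.10 for Birc3 and -0.11 for Birc5. Those of Traf2, Ddit3, Pim1, Casp4 and Nlrp3 were -0.04, 0.32, -0.11, -0.08 and -0.11. Ddit3 varied most, with an SD of 52.6 FPKM around 108 in the empty controls.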

How the data were processed

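Per the labels' protocols, sorted BV2 cells gave RNA for TruSeq v2 libraries, a kit without strand marking, sequenced on a HiSeq in single reads of 100 bases. The authors deposited FPKM values per gene symbol in 2 tables, 1 per experiment. STAR 2.5.2a, featureCounts, DESeq2 1.14, CASAVA 1.8.2, bcl2fastq and mm10 are named, per the submitters' processing notes, without their roles; the annotation is not given in the sources used here. FPKM was read from the values: all 17842 genes above 0 were whole multiples of 1 read, and of 14104 genes above 0 in 10 or more libraries all had a whole length within 0.01 base. Reads per library (22.3 to 33.1 megareads) were recovered from these steps.

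Members were matched by symbol; 4 entries with repeated symbols were left out. Each experiment was fitted with limma 3.58.1 (R 4.3.3) on log2(FPKM + 1), keeping genes that averaged 1 FPKM or more, with Benjamini-Hochberg adjustment over all genes and a threshold of 0.05. A fold change on this scale understates low genes. The difference of effects used all 12 libraries. The scripts were tested on simulated data drawn without any effect of the library number. That test therefore cannot show how the fits behave where numbers differ, as they did here. Groups and numbers came from the labels. Same-numbered libraries of an experiment correlated in their deviations from the group means (0.397, 0.540 and 0.345 in the knockdown, 0.791, 0.845 and 0.513 in the overexpression experiment), all over 0.1 and each best with its own number, so the numbers were taken as pairs; the pairing comes from the data and the shared numbers, as the labels do not say what a number marks. Alternatives were a pseudocount of 0.1, no filter, median-of-ratios scaling, limma-voom on recovered reads, the replicate block and leaving out libraries.

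Median-of-ratios scaling turned the split of calls in the knockdown from 1952 higher and 993 lower to 1265 higher and 1431 lower. The members and lists were chosen with earlier results of these data known. Named pathway genes were up to 3 called genes with the smallest p per list and experiment, or 2 where none was called. Coordinates are from GENCODE M21 (mm10) and promoters from RefSeq (GRCm38.p6).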

Additional observations from a re-analysis of the deposited data

Results flagged for a closer look

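The effects of overexpression and knockdown on 8 members differed by limma with the replicate block, and without the block none of the 8 passed. The blocked fit called 41.5% of all 11224 genes, 12.9% higher and 28.6% lower. As the overexpression effect minus the knockdown effect in log2 units, with SE and adjusted p from limma with the block, the values were 0.70 for Bcl2a1d (SE 0.088, adjusted p = 0.00176), 0.55 for Bcl2a1b (SE 0.076, adjusted p = 0.00229) and 0.30 for Bak1 (SE 0.048, adjusted p = 0.00365). By the same limma fit the difference for Bcl2l11 was 0.33 (SE 0.089, adjusted p = 0.0241), for Bcl2 0.28 (SE 0.091, adjusted p = 0.0453), for Bcl2l1 0.27 (SE 0.063, adjusted p = 0.0136) and for Mcl1 0.22 (SE 0.053, adjusted p = 0.0152). Bid went the other way, at -0.28 (SE 0.078, adjusted p = 0.0276, limma). A change in the knockdown alone is enough to give such a difference. For Bcl2 and Bcl2l1 the overexpression estimates were 0.0036 and -0.0080, beside -0.27 and -0.28 in the knockdown. Mcl1 was lower in both experiments, by estimates of -0.34 in the knockdown and -0.12 in the overexpression experiment. Bcl2a1b, Bcl2a1d and Bak1 were lower in 3 of 3 knockdown pairs, beside 24.6% of genes, and higher in 3 of 3 overexpression pairs, beside 14.0%. The share of genes doing both was not computed. None of these members was called by limma in the overexpression experiment with the block alone or without it. The Bak1 estimate there was 0.08 (SE 0.159).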

How the results depend on the processing

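No call of a member reversed its direction under any alternative run. In the knockdown, 3 members were called; without the filter it was 1, with the replicate block 8, with the block and median-of-ratios scaling 7, and with the block and limma-voom 9. Leaving out 1 library gave 0 to 3, and leaving out both libraries of a number gave 0, 0 and 0 without the block and 6, 1 and 6 with it, for numbers 1, 2 and 3. Of the single members' tests in these knockdown alternatives, 24 lost a call and 22 gained one. In the overexpression experiment, 2 members were called by the block with limma-voom and 0 by every other setting run. For the difference of effects, 0 members became 8 with the block, 8 with the block and median-of-ratios scaling, and 9 with the block and limma-voom. With the block and without numbers 1, 2 or 3, they were 6, 4 and 7 for the knockdown libraries and 7, 3 and 5 for the overexpression libraries. The 17 pathway genes called in the knockdown became 27 with the block, 27 with the block and limma-voom, 6 with the block and without number 2, 5 to 11 without 1 library, and 3, 1 and 3 without both libraries of a number. In the overexpression experiment 3 pathway genes were called by the block with limma-voom. Over all genes the knockdown gave 2945 calls, and 5081, 4685 and 5725 with the block alone, with scaling and with limma-voom, 1268 with the block and without number 2, 1458 to 2206 without 1 library, and 1123, 449 and 678 without both libraries of a number. The overexpression count of 0 became 13 with the block, 12 with scaling added, 495 with limma-voom added, and 5 and 46 with the block and without number 2 or 3. Fits on fewer libraries have fewer degrees of freedom; the cause of the other shifts was not tested. Where 1 library of a group was left out, its spread was pooled with the other group. The block with another choice was added after seeing the data. Beyond the members and counts given, the block changed no other call of a member.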
